A study of Mus musculus with 12 samples.

Results

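The genes described here mark the inner retinal neurons, and they were 36 of the 21930 genes in the deposited count table. They were chosen by symbol: 11 for bipolar cells, 10 for amacrine cells, 4 for horizontal cells and 11 for retinal ganglion cells. The rule uses gene names and no measured value, although the genes were proposed with earlier results of these data known, and each of the 36 symbols was found in the table. RNA-seq had been performed on eye tissue from 12 wild-type male C57BL/6J mice, 3 in each of 4 groups. In AL + PBS the mice ate ad libitum and received an intraperitoneal injection of PBS, and in AL + NaIO3 they ate ad libitum and received sodium iodate (NaIO3), an oxidant that damages the retinal pigment epithelium (RPE). In IF + PBS and IF + NaIO3 the same injections were given to mice on alternate-day fasting (IF). The mice were 8 weeks old at the start and were on the diets for 12 weeks, NaIO3 was given at 25 mg/kg, and each diet went on after the injection until tissue was taken 7 days later. All groups share sex and genotype, and a single dose and a single time point limit the model.

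Visual signals pass from rods and cones to bipolar cells, which relay them to the ganglion cells whose axons form the optic nerve. Horizontal cells feed back onto photoreceptors in the outer plexiform layer, and amacrine cells shape bipolar and ganglion cell signals in the inner plexiform layer, mostly through GABA or glycine. These neurons lie inward of the photoreceptors and do not touch the RPE, the cell layer on which NaIO3 acts first.

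Library totals were between 26364665 and 43046950 counts, and the 36 genes took 0.373% to 0.454% of each library. Counts of these genes ranged from 45 (Th) to 24649 (Nefl) per library, and counting error weighs most on Th, Opn4, Onecut1 and Lhx1, the genes with the fewest reads. Where a member overlaps another gene in the table (Pcp2, Prkca, Slc6a9, Chat, Nefl, Nefm and Nrn1), its counts are uncertain. The labels call the tissue RPE with choroid and sclera, whereas the methods describe eye cups. Markers of neural retina were abundant, since 14 rod genes took 2.60% to 7.35% of the counts, against 0.0759% to 0.314% for 12 RPE genes and 0.00824% to 0.172% for 8 stromal genes of choroid and sclera. Some libraries stood apart in genes of other cells, the third AL + NaIO3 library in several lists. Its rod genes summed to 22932 CPM (reads scaled to a common library size) against 44759 to 76735 elsewhere, and its stromal genes to 1518 CPM against 82.3 to 252 elsewhere. In the second AL + NaIO3 library 6 cornea and conjunctiva genes summed to 520.2 CPM against 6.42 to 122 elsewhere, and in the second AL + PBS library 8 lens genes summed to 306 CPM against 1.61 to 10.2 elsewhere. In these bulk samples, fewer cells of a type and less RNA per cell cannot be told apart.

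Levels differed between genes far more than between groups. On the length-scaled FPKM of the deposited table, Calb2 (calretinin, a calcium-binding protein of amacrine and some ganglion cells) had the highest mean over the 12 libraries, at 206 FPKM (165 to 262). It was followed by Pcp2, a G protein regulator of ON bipolar cells, at 149 FPKM (127 to 182), and by Nefl, the light neurofilament chain of ganglion cell axons, at 122 FPKM (108 to 139.6). The ranges of Pcp2 and Nefl overlapped, and so did those of Calb2 and Pcp2. The next genes were Pax6, the homeobox gene of amacrine and ganglion cells, at 104 FPKM (78.1 to 136), and Sncg, the gamma-synuclein gene of ganglion cells, at 100.5 FPKM (70.0 to 144), whose ranges overlapped as well. At the lower end, the horizontal cell factor Onecut1 was at 0.876 FPKM (0.739 to 1.04) and Th, the rate-limiting enzyme of dopamine synthesis, was at 1.18 FPKM (0.560 to 1.79). Every gene of the 4 classes was therefore detected in each of the 12 libraries, and all 36 passed the filter on low counts in every comparison.

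**Figure D1:**
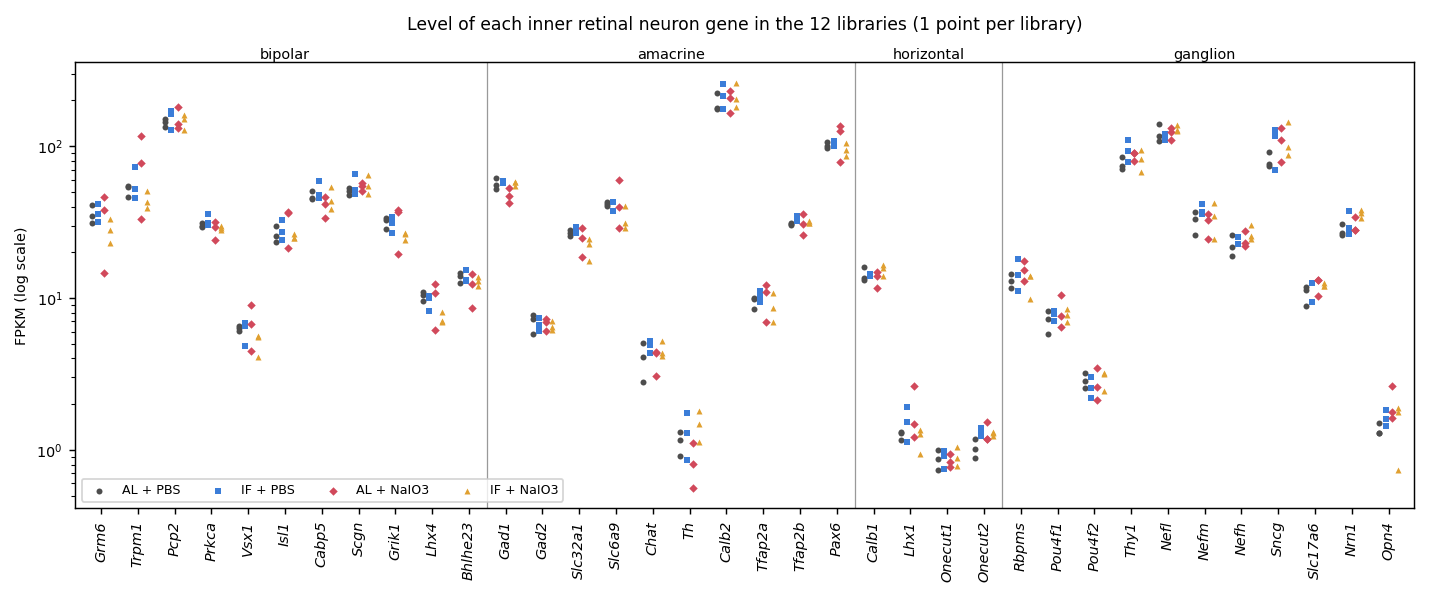
FPKM of the 36 genes (vertical axis, log scale) in 12 libraries, 1 point per library, coloured by group and ordered by cell class. Levels span from Onecut1 at 0.876 to Calb2 at 206 FPKM on average, and the 4 groups overlap for most genes.

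The first comparison asks how the oxidant changed the tissue of freely fed mice, and the second how fasting changed it in injected mice. Both use the AL + NaIO3 libraries, so their values are not independent. For the inner retinal genes neither comparison gave a difference that passed the test. In AL + NaIO3 against AL + PBS, edgeR called 0 of the 36 (adjusted p below 0.05 with at least a 1.5-fold difference), where it called 12 of 15612 genes (0.0769%). At an unadjusted p under 0.05 it gave 1 of the 36, against 10.2% of all genes tested. With other settings or 1 library left out that count was 0 to 6, where 900 to 2977 of all genes had such a p. In IF + NaIO3 against AL + NaIO3, 0 of the 36 were called by edgeR against 6 of 15648 genes (0.0383%), with 3 of the 36 at an unadjusted p under 0.05 against 11.7% of all genes. Under the same changes the count at that p was 0 to 7, where it was 938 to 3513 over all genes. DESeq2 called 0 of the 36 in both, where it called 411 of 15579 genes in the first and 478 of 15623 in the second. The differences that the data allow were bounded: in the first comparison the 95% interval stayed within a 2-fold difference for 32 of the 36 genes and within 1.5-fold for 20, and in the second for 32 and 15.

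Of the 36 genes, 15 were higher and 21 lower in AL + NaIO3 than in AL + PBS, with log2 fold changes from -0.51 to 0.47 and a median of -0.07, against a median of 0.01 over all genes. In IF + NaIO3 against AL + NaIO3, 23 were higher and 13 lower, from -0.54 to 0.94 with a median of 0.13, against -0.01 over all genes. In the first comparison the median was -0.16 for bipolar genes, -0.09 for amacrine genes, 0.08 for horizontal genes and 0.08 for ganglion cell genes, and the rod genes, measured in the same libraries, had a median of -0.56. The rod median moved with single libraries, to -0.23 without the third AL + NaIO3 library and to -1.02 without the first. In the second comparison the medians were -0.07, 0.13, 0.14 and 0.14 in the same order of classes. Leaving out 1 library at a time moved them to between -0.21 and 0.10 for bipolar, 0.04 and 0.17 for amacrine, 0.05 and 0.24 for horizontal and 0.04 and 0.34 for ganglion cell genes. Leaving out the first AL + NaIO3 library moved the bipolar median of the first comparison to -0.01 and the ganglion cell median to -0.09, so the sign of the latter depended on that library. Without the second AL + NaIO3 library the horizontal median was -0.01, and without the third the bipolar median of the second comparison was 0.08, above 0 like those of the other classes. Of the 36 values, 11 changed sign in the first comparison and 0 in the second without the first AL + NaIO3 library, and 1 and 8 did without the third. From 22 to 25 of the 36 moved by over 1.5 times in each case.

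Markers of other cells also lay to one side in these comparisons, and their part in the values of the 36 genes was not tested. In the first comparison 8 of 8 stromal genes (median log2 fold change 1.56), 6 of 6 endothelial genes (0.98), 6 of 6 cornea and conjunctiva genes (1.83) and 8 of 8 microglia and macrophage genes (1.82) were higher and 6 of 7 lens genes (-4.27) were lower, and an unadjusted p under 0.05 was reached by 1, 3, 2, 7 and 4 of them. RPE genes were divided, 7 higher and 5 lower, all 5 of the latter at that p. Without the third AL + NaIO3 library 1 of 8 stromal genes was higher (median -0.29) and 2 of 12 RPE genes were (-0.81). The endothelial median was then 0.31, with 6 of 6 higher, and that of cornea and conjunctiva genes 2.30. For microglia and macrophage genes it was 1.32, with 8 of 8 higher. In the second comparison 8 of 8 stromal (-2.01), 6 of 6 endothelial (-0.65), 6 of 6 cornea and conjunctiva (-1.19), 8 of 8 skeletal muscle (-0.59) and 7 of 8 microglia and macrophage genes (-1.79) were lower, with 8, 1, 1, 0 and 7 at that p. Müller glia genes were lower for 7 of 9 (-0.31, 4 at that p), and 14 of 14 rod genes were higher (0.53, 0 at that p). Without the third AL + NaIO3 library the medians were -0.42 (stromal), -0.12 (endothelial), -1.65 (cornea and conjunctiva), -0.93 (skeletal muscle) and -1.24 (microglia and macrophage). They were -0.04 for Müller glia and 0.17 for rod genes, and the rod median was 1.03 without the first.

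**Figure D2:**
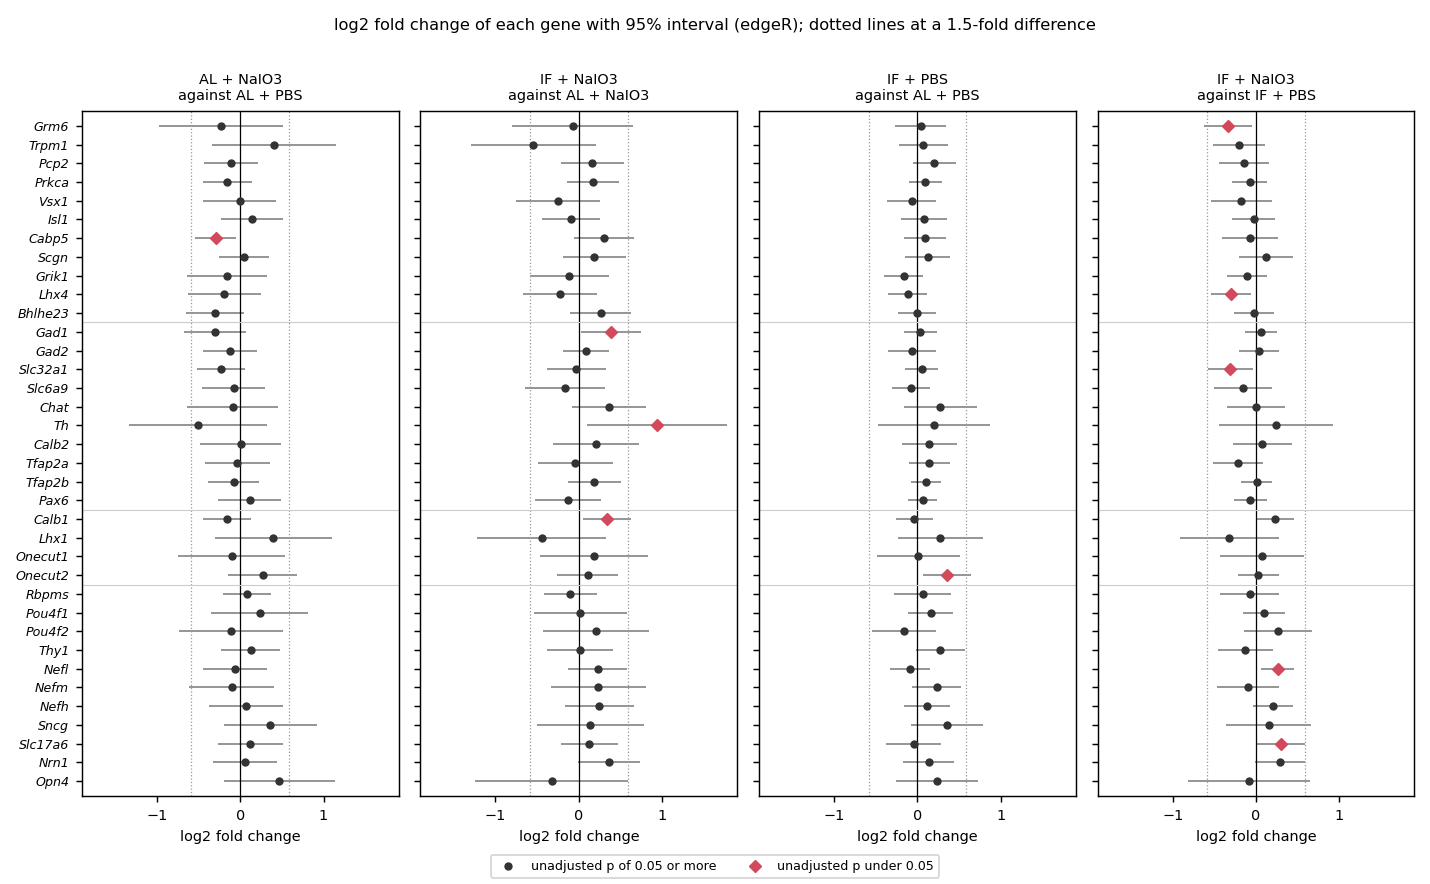
log2 fold change (horizontal axis) of each gene in 4 comparisons, with 95% intervals from edgeR and dotted lines at a 1.5-fold difference. Diamonds have an unadjusted p under 0.05: 1, 3, 1 and 5 genes from left to right, none of which passed the adjusted threshold.

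Groups that do not overlap were counted as a second description. In AL + NaIO3 the 3 libraries were all below the 3 of AL + PBS for 4 of the 36 genes (Cabp5, Bhlhe23, Gad1 and Slc32a1), where 8.64% of all genes were, and all above for 1 (Opn4), where 9.67% of all genes were. In IF + NaIO3 against AL + NaIO3, 4 genes (Gad1, Chat, Th and Calb1) were higher without overlap against 8.88% of all genes, and 0 were lower against 10.1%. Nothing particular to the 36 genes is read from these counts.

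Bipolar cells were the class with the lowest median in AL + NaIO3 against AL + PBS, although not without the first AL + NaIO3 library or the first AL + PBS library, where amacrine genes were lower. Their ON type receives glutamate through the receptor mGluR6, encoded by Grm6, which closes the cation channel Trpm1. Grm6 was at 179, 134 and 158 CPM in AL + PBS, 189, 138 and 157 in IF + PBS, 66.9, 161 and 168 in AL + NaIO3 and 128, 113 and 141 in IF + NaIO3. The first AL + NaIO3 library was the lowest of all 12, whereas the other 2 of its group lay within the AL + PBS range. The log2 fold change of Grm6 in AL + NaIO3 against AL + PBS was -0.24 ± 0.32 (SE, edgeR adjusted p = 0.844), and it was 0.07 without the first and -0.46 without the third AL + NaIO3 library. Trpm1 was at 295, 254 and 288 CPM in AL + PBS, 356, 246 and 276 in IF + PBS, 194, 371 and 530.3 in AL + NaIO3 and 223, 264 and 274 in IF + NaIO3. Its AL + NaIO3 libraries held both the lowest and the highest value of the 12, and they averaged 365 ± 168 CPM (mean ± SD, n = 3) against 279 ± 22.2 CPM in AL + PBS. Trpm1 had the log2 fold change farthest from 0 of the class in both comparisons, at 0.40 ± 0.32 (SE, edgeR adjusted p = 0.709) in AL + NaIO3 against AL + PBS and -0.54 ± 0.32 (SE, edgeR adjusted p = 0.546) in IF + NaIO3 against AL + NaIO3. Without the third AL + NaIO3 library these values were 0.02 and -0.17, and without the first they were 0.70 and -0.84, with adjusted p of 0.149 and 0.131 (edgeR).

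Trpm1 is also a gene of pigment cells, where it was first described as melastatin. In the third AL + NaIO3 library, where it was at 530.3 CPM, the 12 RPE and pigment genes summed to 2767 CPM, the highest of the 12 libraries (792 to 2767). The second AL + NaIO3 library had the second-highest Trpm1 level, 371 CPM, with the lowest RPE and pigment sum, 792 CPM. The part of pigment cells in the Trpm1 level was not tested. The ratio of Trpm1 to Grm6, a value chosen after the levels were seen, was between 1.65 and 1.89 in the 6 PBS libraries. It was 2.90, 2.30 and 3.16 in AL + NaIO3, which did not overlap with either PBS group, and 1.75, 2.34 and 1.94 in IF + NaIO3. How many other pairs of genes separate these groups was not counted, so no difference between groups is read from this ratio. Of the 4 libraries with the highest ratios, the third of AL + NaIO3 had the highest RPE and pigment sum, and the other 3 had the lowest sums of the 12, at 956 and 792 CPM in AL + NaIO3 and 813 CPM in the second IF + NaIO3 library.

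The promoters of 3 bipolar genes with different patterns in AL + NaIO3 are shown here: Grm6 with 1 low library, Trpm1 with the widest spread of the class, and Cabp5 with the lowest unadjusted p. The sequences are from RefSeq (GRCm38.p6), run 5′ to 3′ on the strand of the gene from 250 bases before to 50 bases after its start, and capitals mark the letters TAATCC, a core bound by OTX2 and CRX in retina, or TCATGTG, an E-box core bound by MITF in pigment cells, on either strand (GGATTA and CACATGA in reverse).
Grm6, chr11:50850435-50850734, plus strand: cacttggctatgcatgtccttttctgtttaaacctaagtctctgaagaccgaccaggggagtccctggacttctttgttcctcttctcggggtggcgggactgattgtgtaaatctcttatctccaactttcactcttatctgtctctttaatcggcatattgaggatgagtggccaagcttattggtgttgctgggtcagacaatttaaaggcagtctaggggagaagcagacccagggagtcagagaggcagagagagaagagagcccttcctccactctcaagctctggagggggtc
Trpm1, chr7:64153585-64153884, plus strand: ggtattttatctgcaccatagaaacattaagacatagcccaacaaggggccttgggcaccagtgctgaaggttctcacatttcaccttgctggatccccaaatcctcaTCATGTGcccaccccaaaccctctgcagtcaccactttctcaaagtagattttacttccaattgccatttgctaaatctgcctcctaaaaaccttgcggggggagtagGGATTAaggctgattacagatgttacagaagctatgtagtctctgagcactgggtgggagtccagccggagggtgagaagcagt
Cabp5, chr7:13397905-13398204, plus strand: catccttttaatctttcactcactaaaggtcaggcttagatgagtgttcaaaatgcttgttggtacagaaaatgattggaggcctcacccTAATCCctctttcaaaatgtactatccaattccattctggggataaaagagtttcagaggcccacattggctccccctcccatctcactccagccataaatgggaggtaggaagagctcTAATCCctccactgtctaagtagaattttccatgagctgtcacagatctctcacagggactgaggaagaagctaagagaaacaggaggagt
Neither set of letters is in the Grm6 window. Trpm1 has GGATTA starting 34 bases before the gene start and TCATGTG starting 142 bases before it, and Cabp5 has TAATCC at 160 and 41 bases before. Promoters were matched for 26 of the 36 genes. TAATCC was in 3 of 10 bipolar promoters (Trpm1, Cabp5 and Isl1), in 1 of 9 amacrine promoters (Gad1) and in none of the 2 horizontal and 5 ganglion cell promoters, against 7.06% of 32851 promoters of the same length. TCATGTG was in 1 of the 26 (Trpm1), against 3.77% of all promoters. These matches describe the letters alone.

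Cabp5, a calcium-binding protein of bipolar terminals, was at 108, 96.9 and 96.9 CPM in AL + PBS, 99.7, 126 and 95.9 in IF + PBS, 76.7, 83.0 and 84.0 in AL + NaIO3 and 97.4, 123 and 83.7 in IF + NaIO3. All AL + NaIO3 libraries lay below the 96.9 CPM that was the lowest value of AL + PBS, and the SDs were small, with 81.2 ± 3.98 against 101 ± 6.23 CPM (mean ± SD, n = 3). The log2 fold change was -0.30 ± 0.11 (SE, edgeR adjusted p = 0.414), which is the single value of the class with an unadjusted p under 0.05 in this comparison and does not pass adjustment. IF + NaIO3 reached from 83.7 to 123 CPM and overlapped with AL + NaIO3. Pcp2, the gene of the class with the highest mean FPKM, was at 129, 118 and 126 CPM in AL + PBS, 127, 169 and 135 in IF + PBS, 101, 137 and 106 in AL + NaIO3 and 142, 135 and 111 in IF + NaIO3. The groups overlapped throughout, and its log2 fold change in AL + NaIO3 against AL + PBS was -0.11 ± 0.14 (SE, edgeR adjusted p = 0.836). Scgn, the calcium sensor secretagogin of cone bipolar cells, was at 77.9, 89.3 and 83.7 CPM in AL + PBS, 80.6, 84.8 and 108 in IF + PBS, 95.9, 88.7 and 72.9 in AL + NaIO3 and 95.8, 117 and 82.9 in IF + NaIO3, again without separation, with a log2 fold change of 0.05 ± 0.13 (SE, edgeR adjusted p = 0.930).

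The other bipolar genes were Prkca (the protein kinase of rod bipolar cells), Isl1 and Lhx4 (LIM homeobox factors), Vsx1 (a homeobox factor of cone bipolar cells), Grik1 (a kainate receptor subunit of OFF bipolar cells) and Bhlhe23 (a helix-loop-helix factor needed for rod bipolar cells). Their log2 fold changes in AL + NaIO3 against AL + PBS were between -0.30 (Bhlhe23) and 0.14 (Isl1). Bhlhe23 was at 28.0, 35.3 and 38.2 CPM in AL + NaIO3 and 42.3, 39.1 and 44.7 CPM in AL + PBS, so these groups did not overlap, and its adjusted p was 0.539 (edgeR). Its log2 fold change was -0.19 without the first AL + NaIO3 library and -0.41 without the third. Prkca was the steadiest gene of the class, with a coefficient of variation (CV) over the 12 libraries of 9.05%. Its 95% interval in AL + NaIO3 against AL + PBS was -0.45 to 0.14 in log2. Between IF + NaIO3 and IF + PBS, 10 of the 11 bipolar genes were lower in the former, whereas 10 of 16 other bipolar genes, from a further list, were higher (median 0.02). Grm6 and Lhx4 had an unadjusted p under 0.05 there, as 15.2% of all genes did. Their log2 fold changes were -0.34 ± 0.13 (SE, edgeR adjusted p = 0.280) and -0.30 ± 0.11 (SE, edgeR adjusted p = 0.262). Lhx4 was at 48.3, 48.6 and 54.7 CPM in IF + NaIO3 and 68.1, 54.9 and 63.5 CPM in IF + PBS.

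**Figure D3:**
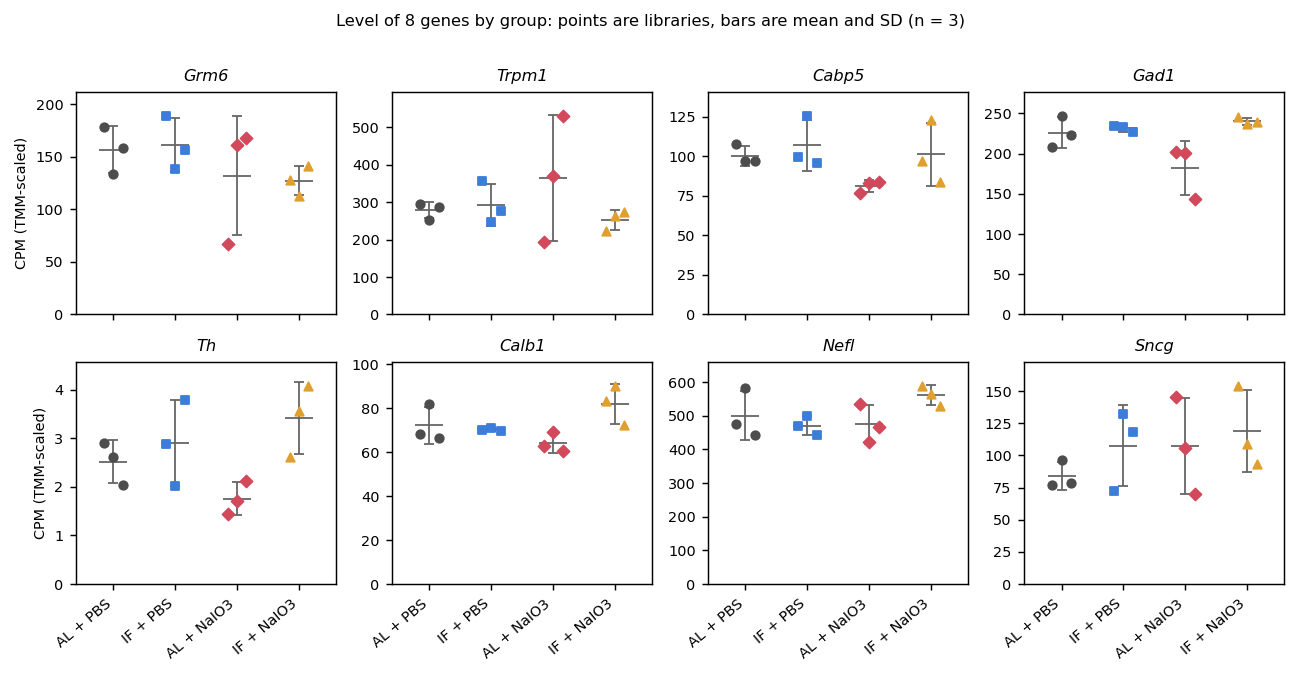
CPM after TMM scaling (vertical axes, from 0) of 8 genes in the 4 groups, with points for libraries and bars for mean and SD (n = 3). Cabp5 and Gad1 are lower in all AL + NaIO3 than in all AL + PBS libraries, Th and Calb1 are higher in all IF + NaIO3 than in all AL + NaIO3 libraries, and no gene passed the adjusted threshold.

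Amacrine genes for GABA synthesis and release gave small differences. Gad1, which makes GABA, was at 208, 247 and 223 CPM in AL + PBS, 234, 233 and 227 in IF + PBS, 202, 201 and 144 in AL + NaIO3 and 245, 236 and 239 in IF + NaIO3. Every AL + NaIO3 library was below every library of the other 3 groups, the third being the lowest at 144 CPM. Its log2 fold change was -0.30 ± 0.16 (SE, edgeR adjusted p = 0.563) in AL + NaIO3 against AL + PBS and 0.39 ± 0.16 (SE, edgeR adjusted p = 0.408) in IF + NaIO3 against AL + NaIO3. Without the third AL + NaIO3 library these were -0.16 and 0.24. Among fasted mice each NaIO3 library was above each PBS library, although by a log2 fold change of only 0.06, and the interaction of diet and injection was 0.36 ± 0.18 (SE, edgeR adjusted p = 0.439). The paralogue Gad2 did not separate in the same way. Its log2 fold changes were -0.12 and 0.08 in the first and second comparison, and its CV was 9.63%. Slc32a1, the vesicular transporter that loads GABA and glycine, was at 90.6, 97.1 and 86.9 CPM in AL + PBS, 95.7, 100.1 and 89.0 in IF + PBS, 67.2, 79.5 and 85.0 in AL + NaIO3 and 80.0, 63.6 and 85.2 in IF + NaIO3. Both NaIO3 groups lay below the PBS group of their own diet without overlap, with log2 fold changes of -0.23 ± 0.13 (SE, edgeR adjusted p = 0.563) in freely fed and -0.31 ± 0.12 (SE, edgeR adjusted p = 0.280) in fasted mice. The value in freely fed mice was -0.15 without the first AL + NaIO3 library and -0.32 without the third.

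Th, which marks the few dopaminergic amacrine cells, was at 2.91, 2.62 and 2.04 CPM in AL + PBS, 2.89, 2.02 and 3.79 in IF + PBS, 1.44, 1.71 and 2.13 in AL + NaIO3 and 2.61, 3.56 and 4.09 in IF + NaIO3. The AL + NaIO3 libraries included the lowest values of the 12 and stayed below all of IF + NaIO3. Among the 36 genes Th had the log2 fold change farthest from 0 in both comparisons, at -0.51 ± 0.36 (SE, edgeR adjusted p = 0.664) and 0.94 ± 0.36 (SE, edgeR adjusted p = 0.382), the latter a 1.92-fold difference with an interval of 0.10 to 1.77 in log2. Without the third AL + NaIO3 library Th was at -0.68 and 1.10. Without the first it was at -0.39 and 0.82, and Trpm1 was then farther from 0 in both, at 0.70 and -0.84. The counts of Th were between 45 and 129 per library and its CV of 31.6% was the largest of the 36 genes, so its error is among the widest. The gene model of Th in the table starts 31133 bases from the RefSeq start, and reads of that stretch would be counted with it. The same holds over shorter stretches for Lhx4 (9657 bases), Gad1 (9057), Tfap2a (3456) and Tfap2b (3140). Chat, the acetylcholine-synthesising enzyme of starburst amacrine cells, was at 11.3, 14.0 and 12.3 CPM in AL + NaIO3 and 18.7, 15.7 and 14.4 CPM in IF + NaIO3, with a log2 fold change of 0.36 ± 0.19 (SE, edgeR adjusted p = 0.508). Its gene overlaps Slc18a3, the vesicular acetylcholine transporter gene, and reads of the pair may not be told apart.

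Calb2, the gene with the highest mean FPKM of the 36, was at 308, 395 and 307 CPM in AL + PBS, 305, 448 and 363 in IF + PBS, 422, 337 and 247 in AL + NaIO3 and 472, 336 and 364 in IF + NaIO3. It was highest in the first IF + NaIO3 library and lowest in the third AL + NaIO3 library, and the groups overlapped. Pax6 was at 327, 320.5 and 335 CPM in AL + PBS, 341, 353 and 331 in IF + PBS, 279, 394 and 383 in AL + NaIO3 and 323, 304 and 346 in IF + NaIO3, where AL + NaIO3 held both the lowest and the highest library. Pax6 is also a gene of the ocular surface, and its highest value was in the second AL + NaIO3 library, the one with most cornea and conjunctiva counts. The third AL + NaIO3 library was nearly as high in Pax6, at 383 CPM, with 35.6 CPM of those genes, and the first IF + NaIO3 library, second in those genes at 122 CPM, had Pax6 at 323 CPM. The part of such cells in its level was not tested. The log2 fold changes in AL + NaIO3 against AL + PBS were 0.00 ± 0.21 (SE, edgeR adjusted p = 0.996) for Calb2 and 0.12 ± 0.16 (SE, edgeR adjusted p = 0.852) for Pax6. Without the first AL + NaIO3 library they were -0.20 and 0.25, and without the third 0.17 and 0.04. Slc6a9, the glycine transporter of glycinergic amacrine cells, ranged from 110.2 to 177 CPM. The transcription factors Tfap2a and Tfap2b, which specify amacrine cells, had log2 fold changes of -0.03 and -0.08 in AL + NaIO3 against AL + PBS. Tfap2b had the lowest CV of the 36 genes, 8.26%.

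Horizontal cells were represented by 4 genes, and Calb1 was most of their sum, at 60.5 to 90.3 CPM where the sum was 94.6 to 128 CPM. Calb1, the calcium-binding protein calbindin, was at 68.2, 82.0 and 66.4 CPM in AL + PBS, 70.3, 71.1 and 69.7 in IF + PBS, 62.9, 69.2 and 60.5 in AL + NaIO3 and 83.2, 90.3 and 72.2 in IF + NaIO3. Each IF + NaIO3 library was above each AL + NaIO3 library and above each IF + PBS library. The log2 fold change was 0.34 ± 0.13 (SE, edgeR adjusted p = 0.370) in IF + NaIO3 against AL + NaIO3 and 0.22 ± 0.10 (SE, edgeR adjusted p = 0.337) in IF + NaIO3 against IF + PBS, and the interaction of 0.39 ± 0.16 (SE, edgeR adjusted p = 0.375) was the one among the 36 genes with an unadjusted p under 0.05, where 12% of all genes had one. Lhx1, the LIM homeobox factor of horizontal cells, was at 6.02, 5.95 and 5.19 CPM in AL + PBS, 7.09, 4.90 and 8.79 in IF + PBS, 5.61, 6.26 and 10.5 in AL + NaIO3 and 6.43, 6.09 and 4.05 in IF + NaIO3. The third AL + NaIO3 library was the highest of the 12, and the log2 fold change of 0.40 ± 0.30 (SE, edgeR adjusted p = 0.693) against AL + PBS was 0.05 without it and 0.56 without the first. Against AL + NaIO3, IF + NaIO3 differed in Lhx1 by -0.45 ± 0.34 (SE, edgeR adjusted p = 0.623), -0.11 without that library and -0.61 without the first. The cut factors Onecut1 and Onecut2 had log2 fold changes of -0.10 and 0.27 in the first comparison. Onecut2 was at 17.7 to 23.1 CPM in AL + PBS and 24.2 to 27.6 CPM in IF + PBS, where the groups did not overlap.

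Ganglion cell genes were led by the light neurofilament chain. Nefl was at 475, 582 and 444 CPM in AL + PBS, 471, 499 and 442 in IF + PBS, 536, 422 and 466 in AL + NaIO3 and 589.9, 564 and 529 in IF + NaIO3. All IF + NaIO3 libraries were above all IF + PBS libraries, with a log2 fold change of 0.26 ± 0.09 (SE, edgeR adjusted p = 0.249), and IF + NaIO3 against AL + NaIO3 gave 0.23 ± 0.15 (SE, edgeR adjusted p = 0.585). The gene model of the medium chain Nefm (chr14:68082590-68124846, GRCm38) spans that of Nefl (chr14:68083863-68089095) in the table, so reads of the 2 genes may be divided. In IF + NaIO3 against AL + NaIO3 the log2 fold change was 0.23 ± 0.25 (SE, edgeR adjusted p = 0.723) for Nefm and 0.25 ± 0.18 (SE, edgeR adjusted p = 0.613) for the heavy chain Nefh. Without the first AL + NaIO3 library these were 0.44 and 0.45, and without the third 0.04 and 0.12. Sncg was at 76.6, 96.3 and 78.7 CPM in AL + PBS, 72.0, 132 and 118 in IF + PBS, 145, 106 and 70.3 in AL + NaIO3 and 154, 109 and 93.0 in IF + NaIO3. It spread more than 2-fold within AL + NaIO3, from 70.3 to 145 CPM, and its log2 fold change against AL + PBS was 0.36 ± 0.24 (SE, edgeR adjusted p = 0.645). Without the third AL + NaIO3 library that value was 0.58 (edgeR adjusted p = 0.201), and without the first it was 0.08. Thy1, the surface glycoprotein of ganglion cells, was at 155, 180.0 and 146 CPM in AL + PBS, 162, 231 and 190.3 in IF + PBS, 201, 177 and 144 in AL + NaIO3 and 206, 150.4 and 175 in IF + NaIO3, and its log2 fold change in AL + NaIO3 against AL + PBS was 0.13 ± 0.15 (SE, edgeR adjusted p = 0.823) with overlapping groups. Without the first AL + NaIO3 library it was 0.00 and without the third 0.24.

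Nrn1, the activity-regulated neuritin, was at 51.6, 61.0 and 52.6 CPM in AL + PBS, 51.4, 74.2 and 55.8 in IF + PBS, 71.5, 50.4 and 48.8 in AL + NaIO3 and 78.2, 71.5 and 71.1 in IF + NaIO3. The second and the third AL + NaIO3 library were below all IF + NaIO3 libraries and the first reached their level. Its log2 fold change in IF + NaIO3 against AL + NaIO3 was 0.36 ± 0.16 (SE, edgeR adjusted p = 0.443), the farthest from 0 of the class, and without the first AL + NaIO3 library it was 0.56 with an adjusted p of 0.118 (edgeR), against 0.26 without the third. Opn4, the melanopsin photopigment of intrinsically photosensitive ganglion cells, was at 3.30, 3.40 and 3.88 CPM in AL + PBS, 4.68, 3.72 and 4.01 in IF + PBS, 4.81, 3.91 and 5.79 in AL + NaIO3 and 4.68, 2.04 and 4.99 in IF + NaIO3. All AL + NaIO3 libraries exceeded the AL + PBS libraries, with a log2 fold change of 0.47 ± 0.29 (SE, edgeR adjusted p = 0.614), the farthest from 0 of the class, and the second IF + NaIO3 library was the lowest of the 12. Opn4 counts were between 74 and 218 per library. Without the third AL + NaIO3 library the log2 fold change of Opn4 was 0.31, and Sncg at 0.58 and Pou4f1 at 0.44 were then farther from 0. The POU factors Pou4f1 and Pou4f2, which specify ganglion cells, had log2 fold changes of 0.24 and -0.11 in AL + NaIO3 against AL + PBS. Both were highest in the first AL + NaIO3 library, at 50.0 and 14.4 CPM. Without it the values were -0.09 for Pou4f1 and -0.43 for Pou4f2, and without the third AL + NaIO3 library they were 0.44 and -0.01, so the sign of Pou4f1 rested on the first library. Rbpms, an RNA-binding protein that marks ganglion cells, had a log2 fold change of 0.08 ± 0.12 (SE, edgeR adjusted p = 0.867), and its interval was -0.20 to 0.37 in log2. Slc17a6, the vesicular glutamate transporter VGLUT2, had 0.12 ± 0.17 (SE, edgeR adjusted p = 0.846) in that comparison and 0.30 ± 0.13 (SE, edgeR adjusted p = 0.307) in IF + NaIO3 against IF + PBS.

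Single libraries differed from the rest of their group in whole classes. As each gene's deviation from its mean log2 CPM over the 12 libraries, averaged over a class, the bipolar genes were at -0.41 in the first AL + NaIO3 library, the lowest class value of all, and between -0.10 and 0.14 in the other 11. That library held the lowest value of the 12 for 7 of 11 bipolar genes and had 10 of 11 below their own mean. At the same time all 11 ganglion cell genes were above their mean there, by 0.29 on average. Its rod genes were at 76735 CPM in sum, the highest of the 12 libraries. The first IF + NaIO3 library also had all 11 ganglion cell genes above their mean, by 0.30, and held the highest value for 5 of them. How many of all genes had their lowest or highest value in a given library was not counted, here or for the third AL + NaIO3 library below.

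The third AL + NaIO3 library showed a different pattern. Where its rod genes deviated by -1.47, its RPE genes by 1.30 and its stromal genes by 2.94, the mean deviations of the inner neuron classes were 0.10 for bipolar genes, -0.15 for amacrine genes, 0.00 for horizontal genes and -0.21 for ganglion cell genes. Single members of a class lay on both sides of 0 there. Trpm1 was at 0.88 and Lhx1 at 0.75, whereas Nefm was at -0.64, Gad1 at -0.60 and Calb2 at -0.51. The library held the lowest value of the 12 for 5 of 11 ganglion cell genes, 3 of 10 amacrine genes, 2 of 4 horizontal genes and 2 of 11 bipolar genes, and the highest for 3 bipolar genes, 1 amacrine gene (Slc6a9), 1 horizontal gene (Lhx1) and 1 ganglion cell gene (Opn4). Microglia and macrophage genes were high in all 3 AL + NaIO3 libraries, with 8 genes that summed to 86.7 to 219 CPM against 39.8 to 52.9 in the other 9 libraries. For each inner neuron class the AL + NaIO3 deviations overlapped with those of AL + PBS and of IF + NaIO3, and the amacrine deviations lay below those of IF + PBS without overlap. The part of cell composition in the deviations of single libraries was not tested.

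**Figure D4:**
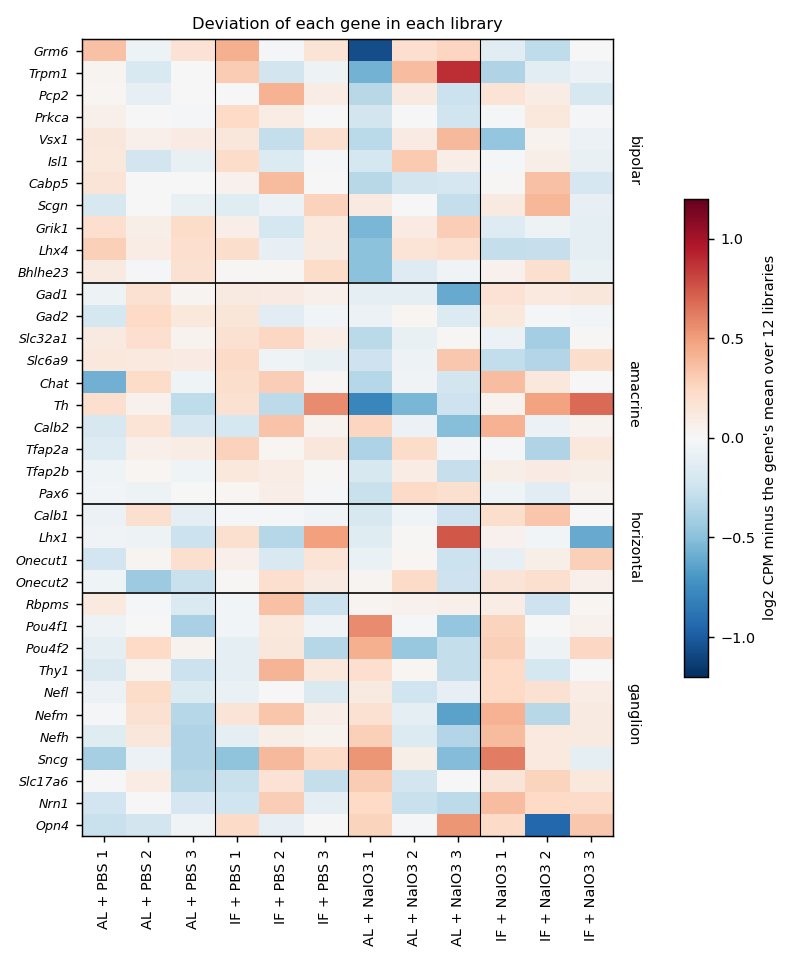
Deviation of each gene (vertical) in each library (horizontal) from its mean log2 CPM over 12 libraries, in colour. The first AL + NaIO3 library has low bipolar and high ganglion cell genes, and the lowest value of all is Grm6 in that library.

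**Figure D5:**
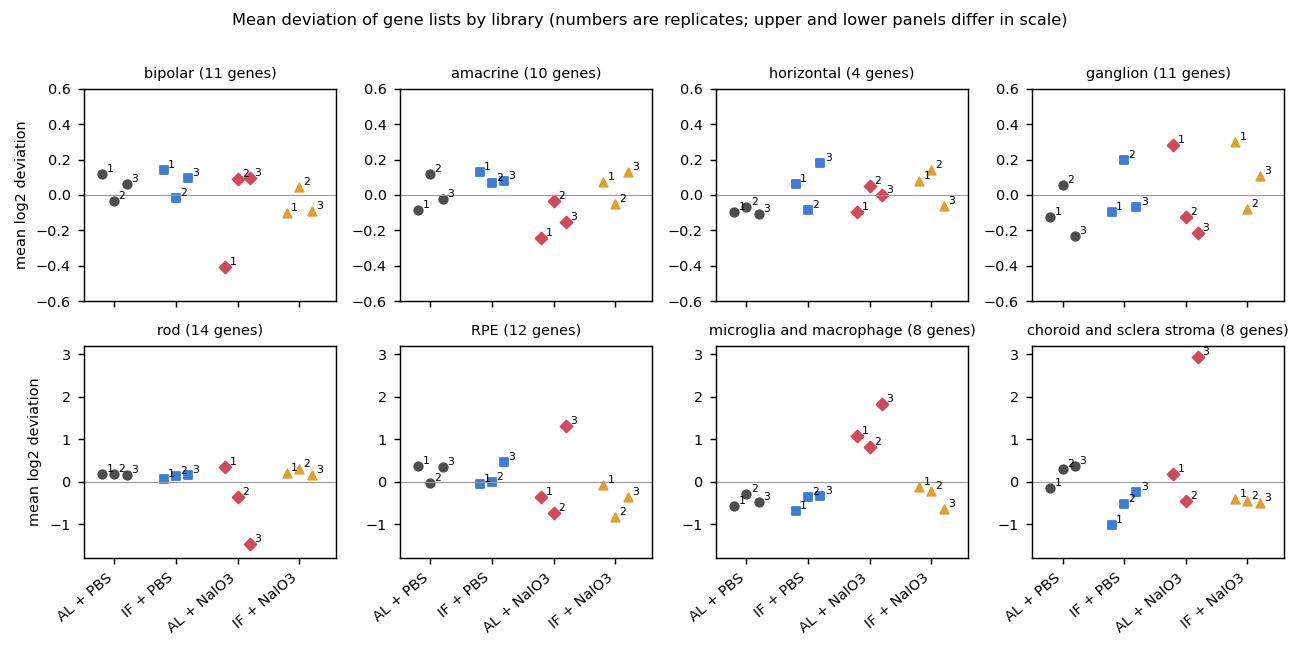
Mean log2 deviation (vertical axis) of 8 gene lists in each library, with replicate numbers beside the points and different scales in the upper and lower panels. The 4 inner neuron classes stay between -0.41 and 0.30, whereas rod genes reach -1.47 and stromal genes 2.94 in the third AL + NaIO3 library.

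Over the 12 libraries the 36 genes had a median CV of 15.1% (8.26% to 31.6%). A CV under 20% was found for 30 of the 36, against 56.7% of 15970 genes, whose median was 17.7%. Those genes were not matched to the 36 for level, and counting error weighs more on genes with few reads. The summed level of a class moved by 1.23-fold between the lowest and the highest library for amacrine genes, 1.35-fold for horizontal, 1.47-fold for ganglion cell and 1.53-fold for bipolar genes. The same ratio was 3.35-fold for rod genes, 3.50-fold for RPE genes and 5.50-fold for microglia and macrophage genes, and 1.41-fold, 1.80-fold, 1.88-fold and 2.14-fold for synaptic, Müller glia, Schwann cell and cone genes. Without the third AL + NaIO3 library, left out after its values had been seen, it was 1.71-fold for rod, 3.17-fold for RPE, 2.93-fold for microglia and macrophage, 1.18-fold for synaptic, 1.25-fold for Müller glia, 1.44-fold for Schwann cell and 1.53-fold for cone genes. The inner neuron classes were then at 1.17-fold (amacrine), 1.33-fold (horizontal), 1.47-fold (ganglion cell) and 1.51-fold (bipolar), so that rod and cone genes moved about as much as bipolar genes.

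Fasting alone was compared in PBS mice, with the AL + PBS libraries of the first comparison. In IF + PBS against AL + PBS, edgeR called 0 of the 36 genes and 0 of 15361 genes (0.0%). DESeq2 called 0 of the 36, where it called 192 of 15354 genes. An unadjusted p under 0.05 was found for 1 of the 36 (Onecut2) against 17.1% of all genes, with a log2 fold change of 0.35 ± 0.13 (SE, edgeR adjusted p = 0.237). Of the 36 genes 26 were higher, with log2 fold changes from -0.16 to 0.36 and class medians of 0.07, 0.08, 0.14 and 0.13 for bipolar, amacrine, horizontal and ganglion cell genes, against a median of 0.01 over all genes. Leaving out 1 library moved the class medians to between -0.04 and 0.11, 0.03 and 0.12, 0.02 and 0.21, and 0.05 and 0.21 in that order. Markers of other cells were lower in IF + PBS, with 8 of 8 skeletal muscle genes (median -1.74), 6 of 6 cornea and conjunctiva genes (-1.94), 6 of 6 lens genes (-5.80) and 8 of 8 stromal genes (-0.68), of which 8, 6, 5 and 5 had an unadjusted p under 0.05. Of 9 cone genes 7 were lower, 5 of them at that p, and the 2 higher ones also had it. The part of these cells in the values of the 36 genes was not tested. The intervals were within a 2-fold difference for all 36 genes and within 1.5-fold for 30. Onecut2 was higher in all IF + PBS libraries, where 10.6% of all genes were, and 0 genes were lower without overlap, where 11.2% were. Sncg had the largest log2 fold change, 0.36 ± 0.19 (SE, edgeR adjusted p = 0.371). Without the second IF + PBS library it was 0.18, and without the first it was 0.57 with an adjusted p of 0.0166 (edgeR), below the fold of 1.5 asked for a call.

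The injection was also compared in fasted mice, with libraries that the comparisons above share. Here 0 of the 36 genes were called by edgeR between IF + NaIO3 and IF + PBS, as were 0 of 15305 genes (0.0%). By DESeq2 0 of the 36 were called, where it called 72 of 15299 genes. An unadjusted p under 0.05 was found for 5 of the 36 (Grm6, Lhx4, Slc32a1, Nefl and Slc17a6) against 15.2% of all genes. Gad1, Calb1, Nefl and Nefh were higher without overlap, where 10.1% of all genes were, and Lhx4 and Slc32a1 were lower, where 10.9% were. Class medians were -0.11 for bipolar, 0.00 for amacrine, 0.05 for horizontal and 0.15 for ganglion cell genes, against a median of 0.00 over all genes, and the intervals stayed within a 2-fold difference for all 36 genes. Leaving out 1 library moved these medians to between -0.18 and -0.06, -0.08 and 0.03, 0.01 and 0.09, and 0.01 and 0.24 in that order. In the same comparison 11 of 12 RPE genes were lower (median -0.64, 8 at an unadjusted p under 0.05), and 6 of 6 cornea and conjunctiva genes (2.45, 5 at that p), 8 of 8 skeletal muscle genes (0.91, 2 at that p) and 9 of 9 cone genes (0.28, 3 at that p) were higher. Their part was not tested either.

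Whether the injection acted differently under the 2 diets was tested as an interaction on the 12 libraries. By edgeR 0 of the 36 passed an adjusted p of 0.05, as 5 of 15970 genes did (0.0313%), 1 had an unadjusted p under 0.05 (Calb1), and DESeq2 called 0 of the 36. The coefficients farthest from 0 were those of Th, 0.75 ± 0.46 (SE, edgeR adjusted p = 0.505), and of Lhx1, -0.71 ± 0.41 (SE, edgeR adjusted p = 0.495). Without the third AL + NaIO3 library they were 0.91 for Th and -0.38 for Lhx1. Trpm1 had an interaction of -0.60 ± 0.38 (SE, edgeR adjusted p = 0.524), which was -0.91 with an adjusted p of 0.0677 (edgeR) without the first AL + NaIO3 library and -0.23 with an adjusted p of 0.795 (edgeR) without the third. Their errors are wide, and the 95% interval stayed within a 2-fold difference for 30 of the 36 genes and within 1.5-fold for 9.

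Other genes of the same cells were counted in 4 further lists, none of which had a called gene in any of the 5 comparisons by edgeR. In AL + NaIO3 against AL + PBS, 9 of 16 other bipolar genes were higher (median log2 fold change 0.05) with 0 at an unadjusted p under 0.05, as were 9 of 15 other ganglion cell genes (median 0.03). Of 15 tested other amacrine and horizontal genes, 10 were higher (median 0.16), 2 of them at an unadjusted p under 0.05, against 10.2% of all genes. Of 12 synaptic genes shared by these neurons, 9 were lower, with a median of -0.11. In IF + NaIO3 against AL + NaIO3 the medians were -0.01, 0.11, -0.01 and 0.09 for these bipolar, ganglion cell, amacrine and horizontal, and synaptic lists. An unadjusted p under 0.05 was found there for 4 of the 15 other ganglion cell genes, all higher, and for 1 of the 16 other bipolar genes, against 11.7% of all genes, and for 0 of the other 2 lists. The count of 4 was 5 without the first AL + NaIO3 library and 2 without the third. The other bipolar list was low in the first AL + NaIO3 library as well, at -0.31, and the other ganglion cell list was at 0.13 there.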

How the data were processed

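RNA from eye tissue of 12 mice was poly-A selected by the authors, who mapped 150-bp reads to GRCm39 per the methods. Gene positions in the table are those of GRCm38. The deposited counts are whole reads per gene without normalization, and the FPKM values were computed by the authors per gene length and library. The submitters' processing notes name HISAT2, StringTie, DESeq2 and edgeR. The counting tool, the annotation and the use of strand in counting are not given in the sources used here, so 7 members that overlap another gene in the table (15 with RefSeq models) have uncertain counts. The authors' table of IF + NaIO3 against AL + NaIO3, with their fold changes and p-values, was not used. All sample columns matched a label (0 left out).

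Counts were tested in R 4.3.3 with edgeR 4.0.16: TMM factors, filterByExpr and the quasi-likelihood test on the 6 libraries compared (12 for the interaction), with Benjamini-Hochberg adjustment over all genes tested. Calls needed an adjusted p under 0.05 and a fold of at least 1.5 (no fold for the interaction). CPM values are TMM-scaled, and log2 CPM used a prior count of 2. Intervals are 95%. Library totals had a median of 31822705 counts, and no libraries of a group were duplicates (chi-square per gene 13.2 to 238). Samples were grouped by their labels, and p-values measure the spread between 3 mice per group.

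All 36 members may be named. Values per library are given for the 3 members of each class with the highest mean FPKM (2 for horizontal cells), and for the member with the largest log2 fold change in AL + NaIO3 against AL + PBS and in IF + NaIO3 against AL + NaIO3. Other members whose values are given were chosen after these had been seen. Genes of the 4 further lists would be named only if called. The members and lists were chosen with earlier results of these data known. Alternatives were DESeq2 1.42.0, upper quartile scaling, no filter, at least 10 counts per library, 1 fit of 12 libraries, no fold threshold, the replicate number as a block, and each library left out. Promoters came from RefSeq (GRCm38.p6).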

Additional observations from a re-analysis of the deposited data

How the results depend on the processing

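With 3 mice per group, modest differences in these genes can be missed, and the intervals give the size that the data allow. Under all 69 alternatives over the 5 comparisons, 0 of the 36 genes were called. Counts over all genes varied more. In AL + NaIO3 against AL + PBS edgeR called 12 genes, DESeq2 411, the fit of 12 libraries 177, and edgeR without the third AL + NaIO3 library 90. In IF + NaIO3 against AL + NaIO3 these were 6, 478, 190 and 75. In IF + PBS against AL + PBS and in IF + NaIO3 against IF + PBS the counts were 0 with edgeR, 192 and 72 with DESeq2, and 472 and 197 without the first IF + PBS library. For the interaction they were 5, 217 with DESeq2, 366 without the first AL + NaIO3 library and 32 without the third. The cause was not tested. Scaling alone turned the sign of Vsx1 in the first comparison, of Pou4f1 and Thy1 in the second, of Tfap2b in IF + NaIO3 against IF + PBS and of Nefm in the interaction, all with values near 0. At an unadjusted p under 0.05 the alternatives gave 0 to 5 of the 36 in IF + PBS against AL + PBS (1451 to 4612 of all genes). They gave 1 to 7 in IF + NaIO3 against IF + PBS (1171 to 3730) and 0 to 5 for the interaction (1247 to 3649). Leaving out 1 library moved class medians in AL + NaIO3 against AL + PBS to between -0.23 and -0.01 (bipolar), -0.18 and -0.04 (amacrine), -0.01 and 0.13 (horizontal) and -0.09 and 0.20 (ganglion cell), and the bipolar median of IF + NaIO3 against AL + NaIO3 to between -0.21 and 0.10.

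Replicate numbers are shared by the groups, but libraries of the same number did not deviate together: of 18 such pairs 1 had a correlation above 0.1 (range -0.10 to 0.14, over 15970 genes), and 4 of 36 checks matched a library best with its own number. With the replicate number as a block, 0 of the 36 genes were called in each comparison. Over all genes 28 of 15612 were called in AL + NaIO3 against AL + PBS and 28 of 15648 in IF + NaIO3 against AL + NaIO3. The counts were 5 of 15361 in IF + PBS against AL + PBS, 0 of 15305 in IF + NaIO3 against IF + PBS and 8 of 15970 for the interaction. The bipolar median of IF + NaIO3 against AL + NaIO3 was 0.03 with the block.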
